A study of Homo sapiens with 17 samples.

Results

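The late change between 12 h and 24 h of TRAIL was described over all genes in MDA-MB-231 cells, by setting the 3 libraries labelled 24 h against the 3 labelled 12 h. These are 6 of the 17 libraries of the series. MDA-MB-231 is an established human triple-negative breast cancer line, labelled mesenchymal and basal B, and grown in RPMI with serum. Cells received 45 nM TRAIL, a dose called suboptimal in the design text so that living rather than apoptotic cells would be seen, and RNA was taken at 0, 1, 3, 6, 12 and 24 h. Both groups compared here carry the same line, the same medium, the same dose and the same treatment label, which the 0 h libraries carry as well. No later library is labelled as untreated, so 12 further hours with TRAIL and 12 further hours in culture cannot be told apart. The labels do not say whether replicates came from separate cultures, so p-values measure the spread between these libraries, which may be technical.

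TRAIL, encoded by TNFSF10, is a ligand of the TNF family that binds the death receptors encoded by TNFRSF10A and TNFRSF10B. The bound receptors recruit FADD and caspase 8, which can start apoptosis, and in surviving cells they can also signal to NF-κB, a family of transcription factors that raises its own subunits, its own inhibitors and the adaptors and ubiquitin ligases of TNF receptor signalling. Interferon-stimulated genes are antiviral genes switched on by interferon signalling at a promoter element called the interferon-stimulated response element. ATF4 is the transcription factor of the integrated stress response, which binds amino acid response elements and raises genes of amino acid synthesis and uptake.

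Promoter sequences are shown for the NF-κB, interferon-stimulated and ATF4 genes, which were picked for this. The called members of each list moved in 1 direction, as did those of other lists, such as DNA replication with 9 higher and 0 lower. The window searched was the 250 bases before each RefSeq gene start (GRCh38.p14), on both strands, and 35116 promoters were searched in all. A match is a description of the letters and does not show a site in use. The κB motif was present in 5.21% of all promoters and in 4 of the 9 matched promoters of the 10 NF-κB genes that rose (NFKB1, NFKBIA, TRAF3 and BIRC3), and in 7 of the 20 matched promoters of all 23 tested. Capitals mark each match to the κB motif, and a further match in BIRC3 is not printed. The windows are at chr4:102501280-102501349, plus strand (NFKB1), chr14:35404791-35404860, minus strand (NFKBIA), chr14:102777386-102777448, plus strand (TRAF3) and chr11:102317255-102317324, plus strand (BIRC3).
NFKB1: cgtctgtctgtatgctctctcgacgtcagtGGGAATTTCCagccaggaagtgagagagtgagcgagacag
NFKBIA: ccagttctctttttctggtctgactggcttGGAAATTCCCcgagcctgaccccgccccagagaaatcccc
TRAF3: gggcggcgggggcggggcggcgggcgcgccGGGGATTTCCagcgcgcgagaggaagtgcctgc
BIRC3: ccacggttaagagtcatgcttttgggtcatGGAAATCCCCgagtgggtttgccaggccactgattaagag

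The core of the interferon-stimulated response element, spelled TTTC, any 2 bases and TTTC, was present in 3.02% of all promoters. It was found in 7 of the 8 matched promoters of the 13 interferon-stimulated genes that rose (IFIT1, IFIT3, IFI44, ISG20, OAS3, HERC5 and IFIH1), and in 14 of the 22 matched promoters of all 29 tested. Capitals mark the matches, of which IFIT1 has 2 and HERC5 2 that overlap, and a further match in HERC5 is not printed. The windows are at chr10:89392477-89392546, plus strand (IFIT1), chr1:78649741-78649788, plus strand (IFI44) and chr4:88456964-88457033, plus strand (HERC5).
IFIT1: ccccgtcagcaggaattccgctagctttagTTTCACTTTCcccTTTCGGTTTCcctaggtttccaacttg
IFI44: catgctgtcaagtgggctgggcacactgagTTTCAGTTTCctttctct
HERC5: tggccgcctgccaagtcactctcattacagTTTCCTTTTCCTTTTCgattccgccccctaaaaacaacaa

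The core of the amino acid response element, spelled TGATGNAA, was present in 3.14% of all promoters and in 2 of the 8 matched promoters of the 9 ATF4 genes that fell (CHAC1 and ASNS), and in 2 of the 16 matched promoters of all 25 tested. In CHAC1 the match, in capitals, is on the other strand and therefore reads as its reverse complement. The windows are at chr7:97872439-97872506, minus strand (ASNS) and chr15:40953232-40953299, plus strand (CHAC1).
ASNS: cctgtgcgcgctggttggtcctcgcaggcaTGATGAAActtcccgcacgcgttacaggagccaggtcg
CHAC1: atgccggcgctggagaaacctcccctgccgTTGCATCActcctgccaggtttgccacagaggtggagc

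Total expected counts per library, which are RSEM's estimates of the fragments of each gene, ran from 14423215 to 19234924 at 12 h and from 14182576 to 16513524 at 24 h. All 8 markers of a mesenchymal breast cancer line were expressed, and their summed level was 7764 to 8231 CPM at 12 h and 7338 to 7373 CPM at 24 h. Of 9 markers of luminal breast cells, ESR1, PGR and FOXA1 stayed below 10 counts in every library, while the other 6, KRT8, KRT18, KRT19, EPCAM, GATA3 and CDH1, did not, and the list summed to 1852 to 2183 CPM at 12 h and 1686 to 1897 CPM at 24 h. Of 9 leukocyte markers, 8 stayed below 10 counts, and the summed level of the list was 1.254 to 1.988 CPM at 12 h and 1.99 to 2.42 CPM at 24 h. Endothelial markers summed to 4.72 to 5.72 CPM at 12 h and to 6.47 to 7.55 CPM at 24 h, with 3 of 5 below 10 counts, and fibroblast markers overlapped between the times. Replicates 2 and 3 at 24 h were close to each other. Chi-square per gene, with values near 1 standing for sampling noise, was 1.67 for this pair and 1.57 for replicates 2 and 3 at 6 h, against 3.68 to 13.5 for the other 14 pairs of replicates. Values in which each of these close pairs is averaged into 1 replicate are called averaged below. The share of counts from mitochondrial genes was 5.01% to 6.80% at 12 h and 3.66% to 4.14% at 24 h.

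Between 12 h and 24 h, 987 of 15365 genes tested rose (6.42%) and 860 fell (5.60%), by edgeR's quasi-likelihood test at an adjusted p below 0.05. Among the genes called the median size of the log2 fold change was 0.33, and 20 genes (0.130%) were at least 2-fold higher and 45 (0.293%) at least 2-fold lower. With the close replicates averaged, 275 rose (1.80%) and 177 fell (1.16%), of which 6 and 9 were at least 2-fold, and all 452 of these were among the 1847 called with separate replicates. Counts scaled by library size alone gave 1270 higher and 627 lower, so the share of higher genes among those called moved from 53.4% to 67.0%. Single libraries also moved the counts. They were 338 higher and 245 lower without 12 h replicate 1, and 354 and 243 without 24 h replicate 2. Without 24 h replicate 3 they were 383 and 285, but without 24 h replicate 1 they were 1529 and 1260. Without 12 h replicate 2 they were 814 and 763, and without 12 h replicate 3 they were 662 and 579. Counts of list members in these fits are to be read beside these totals. The self-test for this comparison used simulated counts of 15365 genes, of which 200 were changed. It recovered 84% of genes changed 1.5-fold and 100% of those changed 2-fold. At the smallest change simulated, which was below 1.5-fold, it recovered 36%. Recovery was not separated by level, so it is not known for genes of low level. For comparison, 916 genes rose (5.96%) and 995 fell (6.48%) from 0 h to 12 h, and 2763 rose (18.0%) and 2625 fell (17.1%) from 0 h to 24 h. With length and GC trends removed from each library, 1428 genes rose (9.29%) and 1171 fell (7.62%) between 12 h and 24 h. Those contrasts share libraries with the one described here, so their values are only set side by side below.

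**Figure D1:**
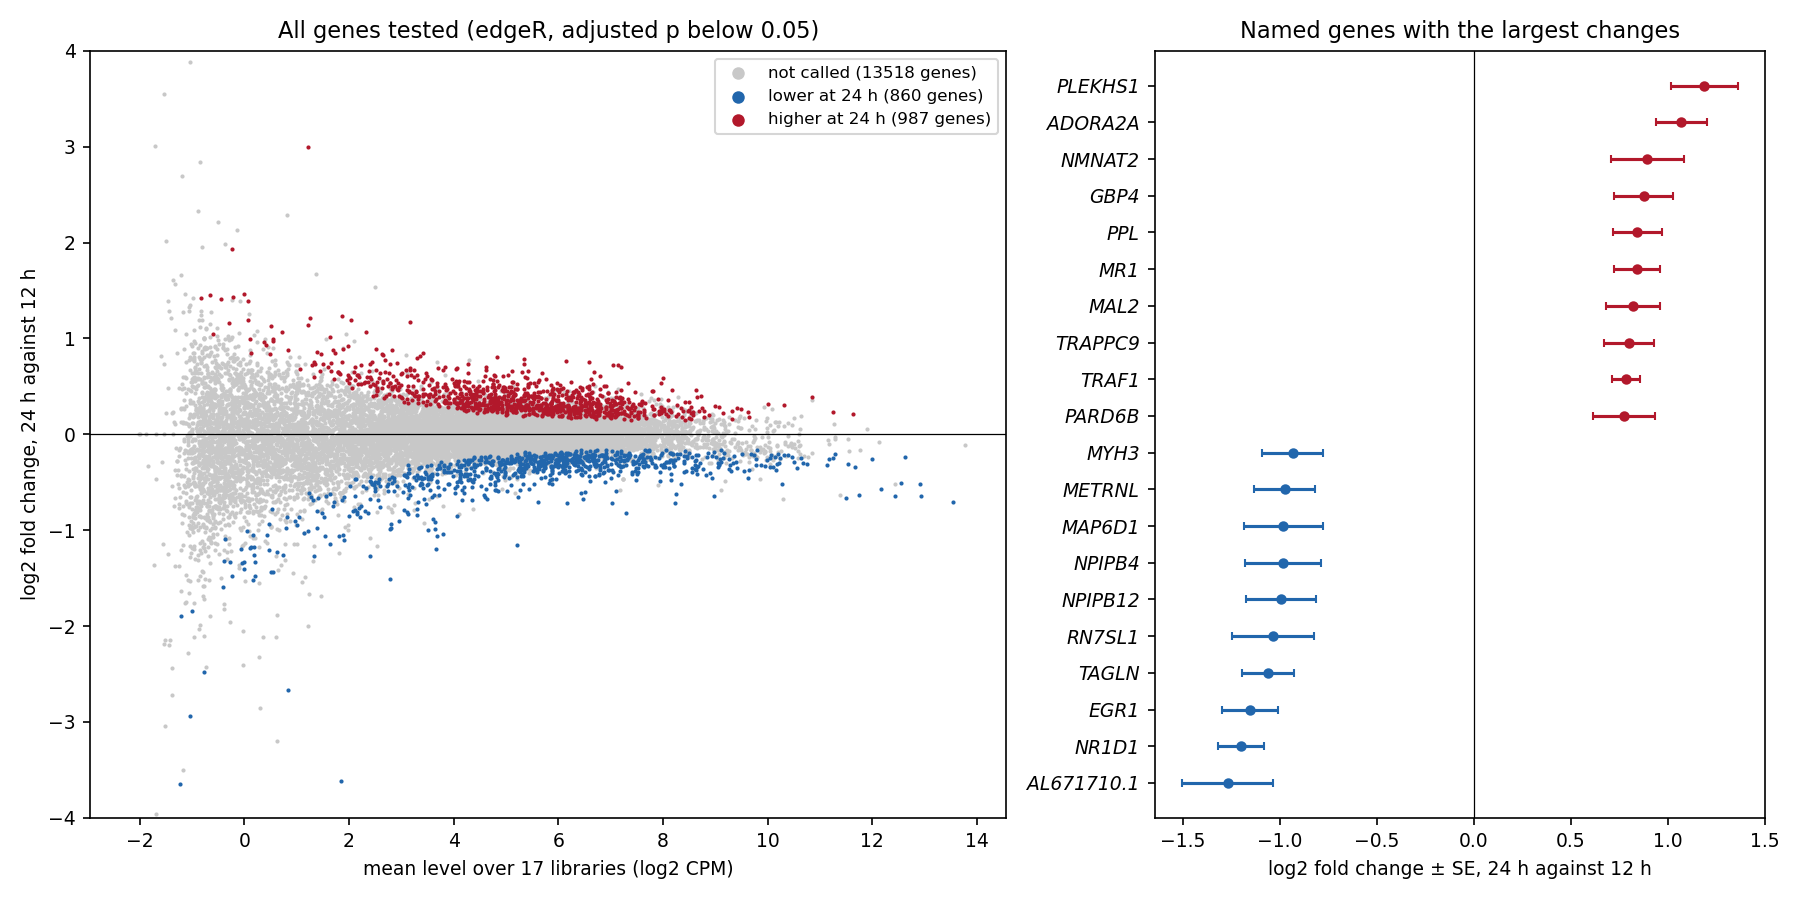
Left, the log2 fold change of each of the 15365 genes tested at 24 h against 12 h, plotted against its mean level over the 17 libraries (log2 CPM), with 987 genes higher in red, 860 lower in blue and the others in grey (24 genes, all not called, lie outside the axis). Right, the log2 fold change with its SE for the 20 genes at either extreme that were named by rule, from PLEKHS1 at 1.19 to AL671710.1 at -1.27.

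The largest rises among genes with a mean level of at least 2 on the log2 CPM scale that also passed with averaged replicates were in PLEKHS1 and ADORA2A. PLEKHS1 (chr10:113751454-113783429, plus strand, GRCh38), which encodes a protein with a pleckstrin homology domain, stood at 3.02, 2.96 and 3.00 CPM at 12 h and 8.08, 5.95 and 6.41 CPM at 24 h. Its 24 h libraries all lay above its 12 h libraries, by 1.19 (SE 0.17, adjusted p = 3.48e-04) on the log2 scale. ADORA2A, an adenosine receptor, stood at 3.63, 3.81 and 3.94 CPM at 12 h and 7.67, 7.87 and 8.47 CPM at 24 h, again without overlap, and rose by 1.07 (SE 0.13, adjusted p = 8.65e-05). The next genes by size were NMNAT2, an NAD-synthesising enzyme (0.89), GBP4, a guanylate-binding protein (0.88), PPL, the desmosomal linker periplakin (0.84), MR1, which presents microbial metabolites to T cells (0.84), MAL2 (0.82), TRAPPC9 (0.80), TRAF1 (0.78) and the polarity gene PARD6B (0.77). MR1 stood at 5.42, 5.47 and 5.11 CPM at 12 h and 9.54, 9.42 and 9.67 CPM at 24 h, without overlap. PLEKHS1, ADORA2A, NMNAT2 and MR1 did not pass the test at 12 h against 0 h (adjusted p of 0.169, 0.220, 0.451 and 0.819). They passed it at 24 h against 0 h (0.00136, 1.81e-04, 0.0115 and 9.98e-05), as did MAL2 (0.542 at 12 h, 7.29e-05 at 24 h). GBP4 and TRAF1 were called above 0 h at both times. PPL and TRAPPC9 were called below 0 h at 12 h, at -0.53 (adjusted p = 0.0110) and -0.48 (adjusted p = 0.0229). At 24 h against 0 h PPL was at 0.32 (adjusted p = 0.0462), while TRAPPC9 and PARD6B did not pass (0.0542 and 0.123).

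Among genes that fell, the largest changes with the same conditions were in AL671710.1, NR1D1 and EGR1. EGR1 (chr5:138465490-138469315, plus strand), an immediate-early zinc finger transcription factor induced by growth factor signalling, stood at 40.2, 34.0 and 40.1 CPM at 12 h and 20.7, 15.2 and 15.2 CPM at 24 h. Every 12 h library lay above every 24 h library, and the fall was 1.15 (SE 0.15, adjusted p = 1.86e-04) on the log2 scale. NR1D1 (chr17:40092787-40100725, minus strand), the clock repressor REV-ERBα, stood at 24.9, 21.0 and 22.2 CPM at 12 h and 9.08, 11.1 and 9.34 CPM at 24 h. It fell by 1.20 (SE 0.12, adjusted p = 1.00e-05). TAGLN, the smooth muscle actin-binding protein transgelin, stood at 15.2, 14.5 and 18.8 CPM at 12 h and 9.19, 6.94 and 7.01 CPM at 24 h and fell by 1.06 (SE 0.13, adjusted p = 8.65e-05). Smaller falls were seen in MAP6D1 (-0.98), the secreted factor METRNL (-0.98) and the myosin heavy chain MYH3 (-0.94). AL671710.1, NR1D1, TAGLN, the signal recognition particle RNA RN7SL1 (-1.04) and the multicopy genes NPIPB12 (-0.99) and NPIPB4 (-0.98) had fractional expected counts in all 17 libraries, as arises where fragments are shared with another gene, so their values are uncertain.

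Of 23 tested members of the NF-κB list, 10 rose, against 6.42% of all genes, and 13 did not pass. The list's median log2 fold change was 0.29, against 0.003 for all genes. With averaged replicates 7 rose (1.80% of all genes), and the count was 8 to 12 when single libraries were left out. Without adjustment, 13 members had a p below 0.05 in the higher direction and 0 in the lower, and DESeq2 and limma-voom likewise called 0 lower. Over all genes, 2545 of the 13518 not called also had an unadjusted p below 0.05, in either direction. Unadjusted counts in other fits, given below, have no share of all genes beside them.

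Of the subunits, 3 of 5 rose. NFKB1, the precursor of p50, stood at 38.6, 45.4 and 41.3 CPM at 12 h and 53.4, 58.5 and 59.5 CPM at 24 h, and rose by 0.45 (SE 0.094, adjusted p = 0.00556). RELB, the partner of p52, stood at 23.3, 24.7 and 28.8 CPM at 12 h and 36.8, 32.2 and 32.2 CPM at 24 h, and rose by 0.40 (SE 0.083, adjusted p = 0.00533). NFKB2, the precursor of p52 and the gene named in the title of the series, stood at 104, 93.3 and 105 CPM at 12 h and 124, 124 and 119.6 CPM at 24 h. All 3 of its 24 h libraries lay above its 12 h libraries, by 0.29 (SE 0.067, adjusted p = 0.0102), and the difference was 0.29 with averaged replicates, where its adjusted p was 0.0551. RELA, which encodes the p65 subunit, stood at 104 ± 7.73 CPM at 12 h and 112 ± 3.10 CPM at 24 h (SD, n = 3, as for all later mean values), and its difference did not pass (adjusted p = 0.273).

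Of the inhibitors and co-regulators, NFKBIA and BCL3 rose among 5 tested. NFKBIA, which encodes IκBα and is a classical target of the factor it inhibits, stood at 60.6, 56.9 and 61.6 CPM at 12 h and 80.2, 76.7 and 72.3 CPM at 24 h. Each 24 h library was above each 12 h library, with a rise of 0.36 (SE 0.062, adjusted p = 0.00149). BCL3, a nuclear IκB protein, stood at 19.4 ± 3.43 CPM at 12 h and 25.2 ± 0.553 CPM at 24 h and rose by 0.38 (SE 0.11, adjusted p = 0.0247), with an averaged adjusted p of 0.0938. Among 6 kinases, IKBKE rose by 0.37 (SE 0.10, adjusted p = 0.0163), with an averaged adjusted p of 0.0780. MAP3K14, the kinase NIK of the non-canonical pathway, was 58.2 ± 4.34 CPM at 12 h and 67.2 ± 1.72 CPM at 24 h (adjusted p = 0.0519).

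Of the adaptors and ubiquitin-editing members, 4 of 7 tested rose. TRAF1 (chr9:120902393-120929173, minus strand), a TNF receptor adaptor, stood at 28.8, 28.6 and 30.3 CPM at 12 h and 49.3, 53.4 and 48.3 CPM at 24 h. The groups were far apart relative to their spread, and the level was 1.72-fold higher at 24 h, a log2 change of 0.78 (SE 0.071, adjusted p = 3.63e-06). BIRC3, the ubiquitin ligase cIAP2, stood at 103, 113 and 102 CPM at 12 h and 161, 189 and 177 CPM at 24 h, and rose by 0.73 (SE 0.089, adjusted p = 8.65e-05). TNIP1, which works with A20 to restrain NF-κB, stood at 163, 163 and 171 CPM at 12 h and 226, 224 and 225 CPM at 24 h, and rose by 0.44 (SE 0.05, adjusted p = 5.04e-05). TRAF3, which holds NIK at low levels, rose by 0.38 (SE 0.071, adjusted p = 0.00263). TNFAIP3, which encodes A20 itself, was not called (0.01, adjusted p = 0.948).

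Set beside 0 h, TRAF1 was higher by 0.82 (adjusted p = 1.57e-06) at 12 h and by 1.60 (adjusted p = 2.77e-11) at 24 h, and BIRC3 by 1.32 (adjusted p = 7.57e-08) and 2.04 (adjusted p = 2.99e-11). NFKB1 was not called at 12 h against 0 h, at 0.16 (adjusted p = 0.306), and was at 24 h, at 0.61 (adjusted p = 1.38e-04). TRAF1 did not rise steadily over the series: its mean was 73.6 ± 3.87 CPM at 6 h, above both later times.

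**Figure D2:**
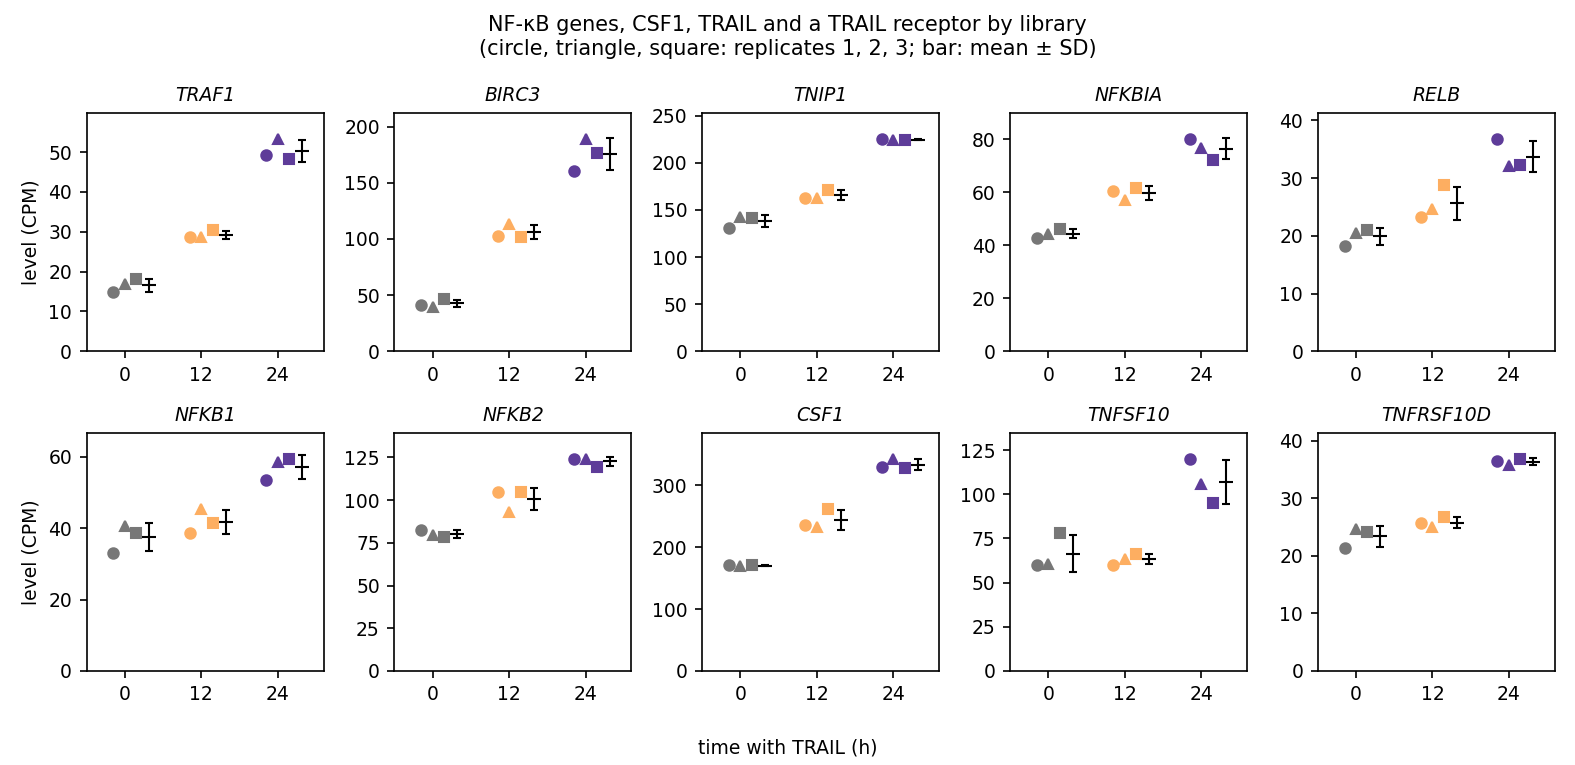
Level (CPM) of 10 genes by library at 0, 12 and 24 h, with circles, triangles and squares for replicates 1, 2 and 3 and a bar for the mean ± SD. All 10 were picked from genes called higher. In each, the 24 h libraries lie above the 12 h libraries, as for TNIP1 at 225 against 166 CPM. Of all genes 15.8% lie so, and 14 of the 23 tested NF-κB members. TNFSF10 at 12 h lies within the range of 0 h.

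Of 20 tested cytokine and chemokine genes, 3 rose (6.42% of all genes) and 4 fell (5.60%). Averaged replicates left 2 higher and 1 lower, and the count of lower members was also 1 without 12 h replicate 1, without 24 h replicate 2 or without 24 h replicate 3. Of all genes, 245, 243 and 285 fell without those libraries in turn, against 860 in the main fit. CSF1, the growth factor of macrophages, stood at 237, 232 and 262 CPM at 12 h and 329, 343 and 328 CPM at 24 h. It rose without overlap, by 0.45 (SE 0.053, adjusted p = 5.68e-05). CXCL8, the main human attractant of neutrophils, stood at 24.1, 27.0 and 22.9 CPM at 12 h and 15.5, 17.1 and 16.8 CPM at 24 h. Every 24 h library was below every 12 h library, and the level fell by 0.59 (SE 0.11, adjusted p = 0.00338). CXCL2 and CXCL3, which act on the same receptor, fell by 0.49 (SE 0.15, adjusted p = 0.0414) and by 1.06 (SE 0.28, adjusted p = 0.0210), but their averaged adjusted p were 0.145 and 0.0981. CXCL1, of the same group, was 3.29 ± 0.621 CPM at 12 h and 3.54 ± 0.684 CPM at 24 h, which was not called (adjusted p = 0.693).

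IL11 rose from 26.7, 25.2 and 26.4 CPM to 33.8, 33.3 and 33.0 CPM, by 0.36 (SE 0.075, adjusted p = 0.00570). IL6 stood at 14.1, 17.5 and 13.5 CPM at 12 h and 18.7, 19.0 and 18.1 CPM at 24 h, and did not pass (adjusted p = 0.0537). IL32 fell by 0.33 (SE 0.081, adjusted p = 0.0143), and the interferon-induced chemokine CXCL11, at 1.01 CPM at 12 h and 1.80 CPM at 24 h, rose by 0.85 (SE 0.26, adjusted p = 0.0384). Both missed the threshold with averaged replicates, at 0.0946 and 0.0955. CXCL8 remained above its 0 h level at 24 h, by 0.54 (adjusted p = 0.00277), after 1.13 (adjusted p = 6.61e-06) at 12 h. CXCL5, CXCL6, CCL2 and CCL20 had at most 6 counts in any library and were not tested.

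The ligand and its receptors made up most of the rises in the apoptosis list, in which 6 of 28 tested members rose (6.42% of all genes) and 22 did not pass, and 4 rose with averaged replicates. TNFSF10, which encodes TRAIL itself, stood at 60.1, 63.4 and 65.9 CPM at 12 h and 120.2, 106 and 95.1 CPM at 24 h. The lowest 24 h library was above the highest 12 h library, and the rise was 0.76 (SE 0.11, adjusted p = 4.51e-04). At 0 h it stood at 66.3 ± 10.3 CPM, and at 12 h it did not differ from 0 h by the test, at -0.07 (adjusted p = 0.733). The decoy receptor gene TNFRSF10D stood at 25.6, 24.9 and 26.7 CPM at 12 h and 36.5, 35.7 and 36.9 CPM at 24 h, and rose by 0.50 (SE 0.077, adjusted p = 5.89e-04). The death receptor gene TNFRSF10B stood at 131, 146 and 129.8 CPM at 12 h and 167, 174 and 168 CPM at 24 h, and rose by 0.32 (SE 0.057, adjusted p = 0.00152). The other death receptor gene, TNFRSF10A, also rose, by 0.27 (SE 0.071, adjusted p = 0.0184), though its averaged adjusted p was 0.0727.

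Downstream of the receptors, FADD rose by 0.27 (SE 0.08, adjusted p = 0.0336), with an averaged adjusted p of 0.0992, while CASP8 was 31.1 ± 0.891 CPM at 12 h and 28.9 ± 0.968 CPM at 24 h and was not called (adjusted p = 0.328). BCL2L1, which encodes the anti-apoptotic BCL-XL, stood at 380.4, 377 and 407 CPM at 12 h and 477, 461 and 470.5 CPM at 24 h. It rose by 0.28 (SE 0.048, adjusted p = 0.00159). The counts of FADD and BCL2L1 were fractional in all 17 libraries. The inhibitor CFLAR was 67.8 ± 1.63 CPM at 12 h and 75.8 ± 2.29 CPM at 24 h, with an adjusted p of 0.0672, and 0 of 5 executioner caspase and apoptosome genes were called by edgeR, with the median of those 5 at 0.03.

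Among immune checkpoint and immune suppression genes, 3 of 14 tested rose (6.42% of all genes) and 1 fell (5.60%), and 2 and 1 with averaged replicates. VSIR, the checkpoint ligand VISTA, stood at 6.79, 6.32 and 7.89 CPM at 12 h and 10.9, 10.8 and 10.6 CPM at 24 h, and rose by 0.62 (SE 0.12, adjusted p = 0.00337). PTGES, a synthase of prostaglandin E2, stood at 39.6, 37.5 and 44.4 CPM at 12 h and 62.0, 55.6 and 56.4 CPM at 24 h, and rose by 0.52 (SE 0.084, adjusted p = 8.63e-04). CD274, which encodes PD-L1, was 34.6 ± 1.76 CPM at 12 h and 33.0 ± 3.80 CPM at 24 h, with overlapping replicates (adjusted p = 0.610). TGFB2 rose by 0.51 (SE 0.12, adjusted p = 0.0117), with an averaged adjusted p of 0.0617, and VEGFA fell by 0.28 (SE 0.059, adjusted p = 0.00615), both with fractional counts in all 17 libraries. The fall of VEGFA was not called without 12 h replicate 1.

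Interferon-stimulated genes rose in 13 of 29 tested, against 6.42% of all genes, and their median log2 fold change was 0.27. With averaged replicates 9 rose, and the count was 8 without 12 h replicate 1 and 9 without either of the close 24 h replicates. The antiviral RNA-binding proteins of the IFIT family were called together. IFIT1 stood at 52.3, 56.0 and 53.6 CPM at 12 h and 85.3, 78.8 and 75.7 CPM at 24 h, and rose by 0.56 (SE 0.066, adjusted p = 5.68e-05). IFIT3 stood at 91.9, 109.8 and 109 CPM at 12 h and 159, 155 and 149 CPM at 24 h, and rose by 0.57 (SE 0.068, adjusted p = 6.27e-05). The 24 h libraries of both lay above those of 12 h, as did those of IFIT2, at 0.58 (SE 0.064, adjusted p = 3.12e-05), whose counts were fractional in all 17 libraries.

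HERC5, the ligase that attaches ISG15 to proteins, stood at 23.1, 24.3 and 21.7 CPM at 12 h and 36.7, 35.0 and 38.1 CPM at 24 h. It rose by 0.67 (SE 0.084, adjusted p = 9.50e-05), having been at 0.00 (adjusted p = 0.997) at 12 h against 0 h. DDX58, the RNA sensor RIG-I, stood at 39.6, 47.9 and 43.0 CPM at 12 h and 63.1, 72.3 and 71.3 CPM at 24 h, and rose by 0.66 (SE 0.084, adjusted p = 1.01e-04). OASL stood at 25.2, 25.5 and 27.9 CPM at 12 h and 43.6, 39.5 and 37.4 CPM at 24 h, and rose by 0.62 (SE 0.083, adjusted p = 1.62e-04). IFI35 (0.53), IFI44 (0.40), ISG20 (0.52), the RNA sensor IFIH1 (0.47), OAS2 (0.27) and OAS3 (0.27) also rose, of which ISG20, OAS2 and OAS3 were not called with averaged replicates (0.101, 0.0983 and 0.134).

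Not every interferon-stimulated gene moved. ISG15 was 82.1 ± 9.74 CPM at 12 h and 85.5 ± 6.52 CPM at 24 h (adjusted p = 0.773), MX1 was 12.0 ± 0.583 CPM at 12 h and 14.4 ± 1.03 CPM at 24 h (adjusted p = 0.0678), and IFITM3 had a log2 fold change of -0.21 (adjusted p = 0.207). MHC class I antigen presentation genes, which interferon also raises, had 1 of 17 tested called (6.42% of all genes), the peptide-trimming ERAP1 at 0.33 (SE 0.095, adjusted p = 0.0322), whose libraries overlapped between the times and which was not called with averaged replicates (0.155). The median of that list was -0.002.

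**Figure D3:**
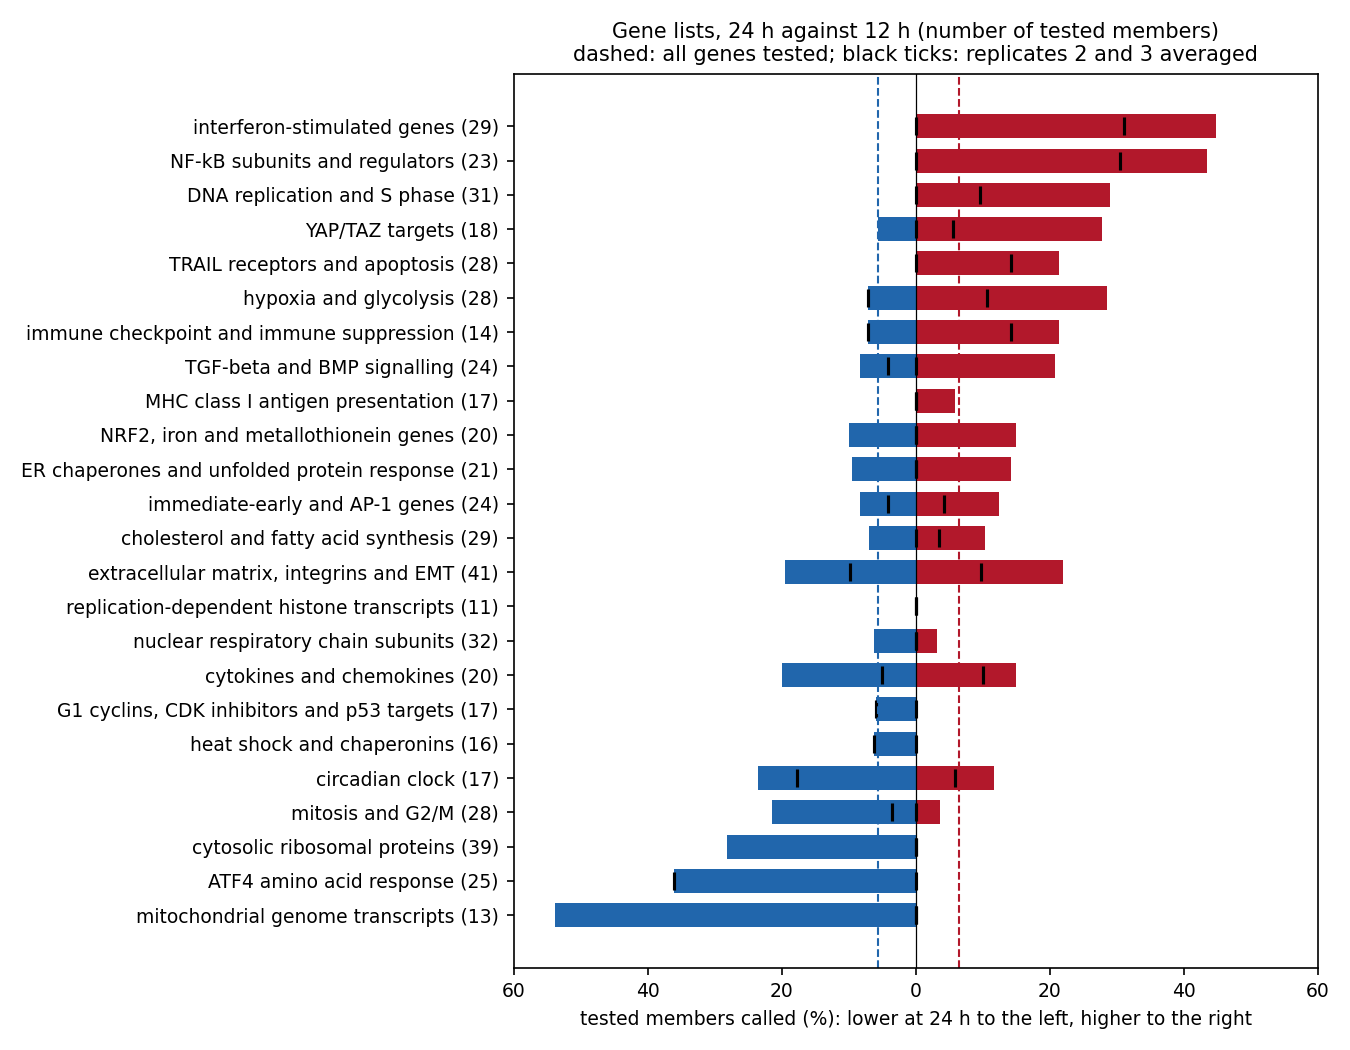
Percent of the tested members of each of 24 gene lists called lower (left, blue) or higher (right, red) at 24 h against 12 h, with black ticks for averaged replicates and dashed lines for all genes (5.60% lower, 6.42% higher). In the ATF4 list the tick lies at the end of the bar, at 9 of 25, while in the mitochondrial and ribosomal protein lists the tick is at 0.

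The ATF4 amino acid response list fell in 9 of 25 tested members, against 5.60% of all genes, with a list median of -0.16. The count was 9 with averaged replicates (1.16% of all genes), 9 with length and GC trends removed (7.62% of all genes), and 9 with each of the 6 libraries left out in turn. In 17 of the 25 members the 24 h libraries all lay below the 12 h libraries, against 14.2% of all genes. Among the regulators, 4 of 8 fell. ATF4 itself stood at 343, 316 and 322 CPM at 12 h and 253, 220.3 and 214 CPM at 24 h. The groups did not overlap, and the level fell by 0.51 (SE 0.071, adjusted p = 2.33e-04). TRIB3, a pseudokinase induced by ATF4, stood at 31.0, 28.7 and 28.5 CPM at 12 h and 22.2, 18.2 and 20.8 CPM at 24 h, and fell by 0.53 (SE 0.085, adjusted p = 8.73e-04). DDIT3, which encodes CHOP, fell by 0.61 (SE 0.11, adjusted p = 0.00219), and CHAC1, a glutathione-degrading enzyme, stood at 9.46, 7.58 and 9.88 CPM at 12 h and 5.21, 5.33 and 4.34 CPM at 24 h, and fell by 0.85 (SE 0.16, adjusted p = 0.00319).

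In the synthesis group, ASNS and PSAT1 fell among 8 tested. ASNS, asparagine synthetase, stood at 99.2, 100.4 and 96.6 CPM at 12 h and 71.2, 57.1 and 56.5 CPM at 24 h. Replicate 1 at 24 h was the highest of its time but below all 12 h libraries, and the fall was 0.68 (SE 0.08, adjusted p = 6.24e-05). PSAT1, an enzyme of serine synthesis, stood at 130.5, 146 and 129.8 CPM at 12 h and 98.3, 100.4 and 98.1 CPM at 24 h, and fell by 0.45 (SE 0.065, adjusted p = 3.22e-04). PHGDH, the first enzyme of that pathway, was not called (-0.05, adjusted p = 0.845).

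Of the transport and charging group, 3 of 9 fell. SLC3A2 (chr11:62856102-62888875, plus strand), the heavy chain of the large neutral amino acid transporter, stood at 329, 331 and 341 CPM at 12 h and 227, 209 and 215 CPM at 24 h. It had the lowest adjusted p of the list, with a fall of 0.62 (SE 0.056, adjusted p = 3.63e-06). SLC7A5, its light chain LAT1, stood at 487, 493 and 528 CPM at 12 h and 362, 399 and 382 CPM at 24 h, and fell by 0.40 (SE 0.056, adjusted p = 2.90e-04). Transcripts of both chains of that transporter were therefore lower at 24 h than at 12 h. SLC7A11, the cystine transporter that shares SLC3A2, was not called (0.04, adjusted p = 0.863). GARS, the glycyl-tRNA synthetase, fell by 0.33 (SE 0.052, adjusted p = 7.47e-04). The counts of ASNS, SLC7A5 and DDIT3 were fractional in all 17 libraries. Against 0 h, SLC3A2 was at 0.18 (adjusted p = 0.0421) at 12 h and -0.44 (adjusted p = 1.56e-05) at 24 h, SLC7A5 at 0.38 (adjusted p = 2.47e-04) and -0.02 (adjusted p = 0.810), and ASNS at 0.03 (adjusted p = 0.833) and -0.65 (adjusted p = 1.44e-05).

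**Figure D4:**
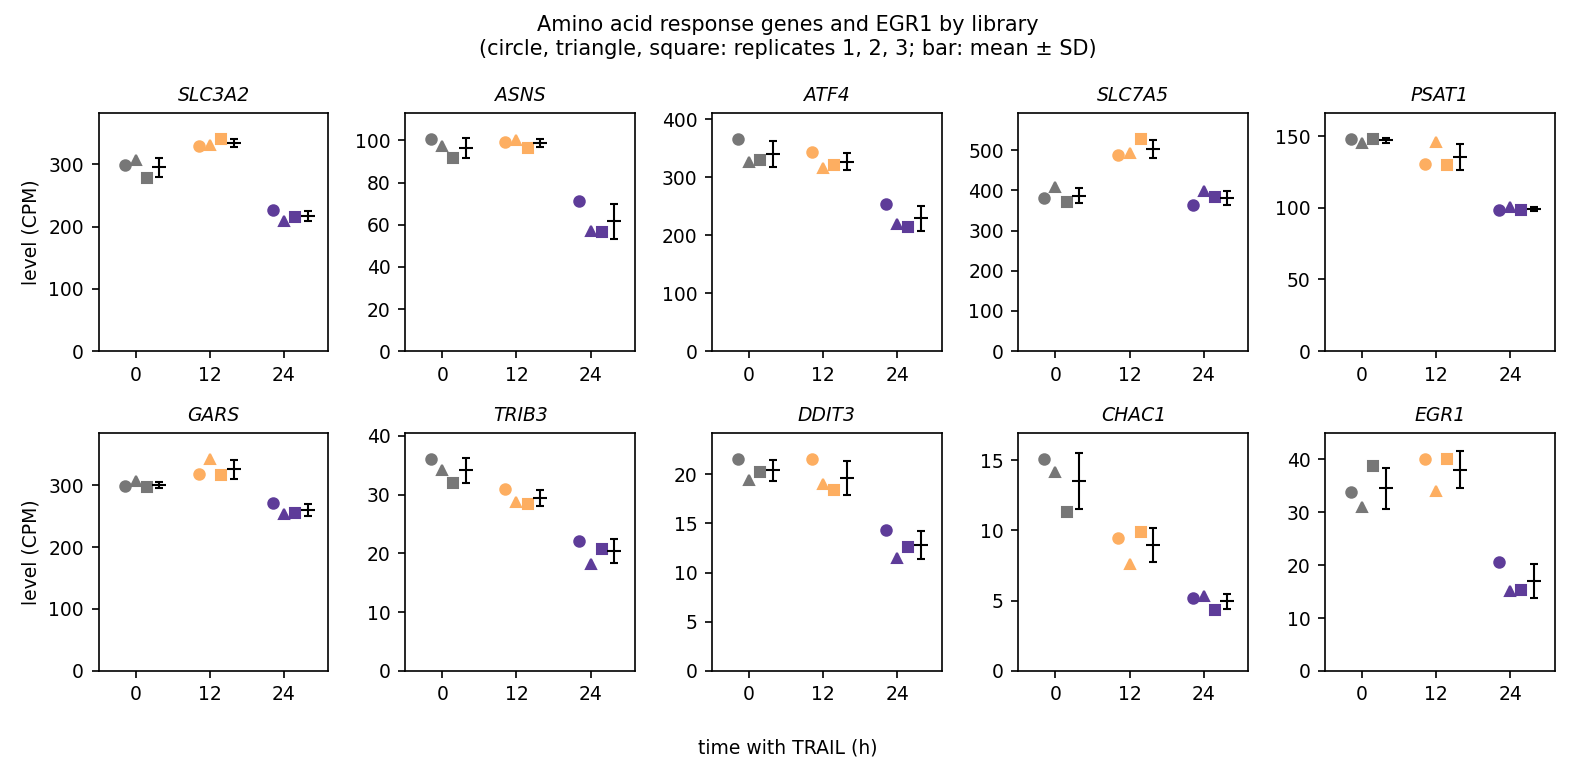
Level (CPM) of the 9 ATF4 list members that fell and of EGR1, by library at 0, 12 and 24 h, with circles, triangles and squares for replicates 1, 2 and 3 and a bar for the mean ± SD. All 10 were picked from genes called lower. In each, every 24 h library lies below every 12 h library, as for SLC3A2 at 217 against 334 CPM. Of all genes 14.2% lie so.

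Of 21 endoplasmic reticulum chaperone and unfolded protein response genes, 3 rose (6.42% of all genes) and 2 fell (5.60%), led by HYOU1 at 0.37 (SE 0.086, adjusted p = 0.0102), and 0 were called with averaged replicates, where 6 had an unadjusted p below 0.05 in the higher and 2 in the lower direction. Of 16 heat shock genes, 1 fell (5.60% of all genes), the mitochondrial co-chaperonin HSPE1, and no other was called. Its fall was 0.48 (SE 0.092, adjusted p = 0.00360), with fractional counts in all 17 libraries. In the NRF2, iron and metallothionein list, 3 of 20 rose (6.42% of all genes) and 2 fell (5.60%). TFRC, GCLM and TXNRD1 rose by 0.54, 0.34 and 0.27, and MT1E and MT2A were at -0.49 and -0.45. None of these 5 passed with averaged replicates, where 3 members had an unadjusted p below 0.05 in the higher and 2 in the lower direction.

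DNA replication genes rose in 9 of 31 tested (6.42% of all genes), with a median of 0.13. The count was 3 with averaged replicates (1.80% of all genes), 4 without 12 h replicate 1, 24 h replicate 2 or 24 h replicate 3, and 13 with length and GC trends removed (9.29% of all genes). Of all genes, 338, 354 and 383 rose without those libraries in turn, against 987 in the main fit. MCM4, a subunit of the replicative helicase, stood at 140.3, 146 and 148 CPM at 12 h and 168, 186 and 178 CPM at 24 h, and rose by 0.29 (SE 0.058, adjusted p = 0.00401). MCM7 stood at 299, 314 and 319.9 CPM at 12 h and 373, 358 and 366 CPM at 24 h, and rose by 0.23 (SE 0.051, adjusted p = 0.00702). MCM2 rose by 0.39 (SE 0.086, adjusted p = 0.00741), with fractional counts in all 17 libraries. Beyond the helicase, RRM1, a subunit of ribonucleotide reductase, rose by 0.32 (SE 0.076, adjusted p = 0.0109), and E2F1 by 0.21 (SE 0.062, adjusted p = 0.0320). Set beside 0 h, MCM4 was at -0.39 (adjusted p = 2.50e-04) at 12 h and -0.10 (adjusted p = 0.194) at 24 h, and MCM7 at -0.40 (adjusted p = 5.18e-05) and -0.16 (adjusted p = 0.0179). Of the clamp and nucleotide genes, PCNA, TYMS and RRM2 had log2 fold changes of -0.02, 0.05 and 0.02 and were not called.

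Of 28 tested mitosis and G2/M genes, 6 fell (5.60% of all genes) and 1 rose (6.42%). The count of lower genes was 1 with averaged replicates and 2 without 12 h replicate 1, 24 h replicate 2 or 24 h replicate 3. Of all genes, 177 fell with averaged replicates and 245, 243 and 285 without those libraries in turn, against 860 in the main fit. KIF20A, a kinesin of the central spindle, stood at 256, 251 and 251 CPM at 12 h and 197, 194 and 189 CPM at 24 h. Its fall of 0.39 (SE 0.051, adjusted p = 1.52e-04) was the only one that passed with averaged replicates. CCNB1 (cyclin B1, -0.23), AURKA (-0.24), AURKB (-0.22), UBE2C (-0.30) and PTTG1 (securin, -0.34) were lower by the main test. FOXM1, a transcription factor of mitotic genes, rose by 0.30 (SE 0.064, adjusted p = 0.00662), and its averaged adjusted p was 0.0561. MKI67, CDK1 and PLK1 were not called, at 0.16, -0.03 and 0.05. Against 0 h, KIF20A was at 0.73 (adjusted p = 3.98e-08) at 12 h and 0.34 (adjusted p = 8.43e-05) at 24 h. Among 17 G1 cyclins, CDK inhibitors and p53 targets, MYC alone was called (5.60% of all genes fell), at -0.23 (SE 0.049, adjusted p = 0.00531). CCND1 and CDKN1A were not called (0.08 and 0.12).

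In the clock list, 4 of 17 tested members fell (5.60% of all genes) and 2 rose (6.42%), and 3 and 1 with averaged replicates. NR1D1 fell as described above. ARNTL, which encodes BMAL1 and is repressed by REV-ERBα, stood at 7.06, 9.13 and 8.33 CPM at 12 h and 4.63, 5.39 and 5.40 CPM at 24 h. It also fell, by 0.68 (SE 0.17, adjusted p = 0.0151), with an averaged adjusted p of 0.0579. BHLHE40 stood at 83.2, 83.3 and 82.0 CPM at 12 h and 67.6, 61.9 and 60.2 CPM at 24 h, and fell by 0.39 (SE 0.061, adjusted p = 6.38e-04), and the output gene TEF fell by 0.51 (SE 0.10, adjusted p = 0.00455). PER3 rose by 0.47 (SE 0.086, adjusted p = 0.00222) and PER2 was 5.62 ± 0.361 CPM at 12 h and 5.49 ± 0.608 CPM at 24 h (adjusted p = 0.861). From 0 h, NR1D1 was 0.53 (adjusted p = 0.00549) at 12 h and -0.68 (adjusted p = 5.28e-04) at 24 h, and PER3 was -0.70 (adjusted p = 2.68e-05) and -0.23 (adjusted p = 0.0412).

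Of 24 immediate-early and AP-1 genes, 3 rose (6.42% of all genes) and 2 fell (5.60%). EGR1 was given above. FOSL1, an AP-1 subunit, fell by 0.35 (SE 0.081, adjusted p = 0.00976), while FOS, at 14.7, 15.9 and 13.7 CPM at 12 h and 23.5, 19.9 and 20.3 CPM at 24 h, rose by 0.52 (SE 0.14, adjusted p = 0.0231) and FOSL2 by 0.29 (SE 0.075, adjusted p = 0.0186). Averaged values of these 3 missed the threshold (0.0759, 0.0626 and 0.119). The ERK phosphatase DUSP4 rose by 0.26 (SE 0.054, adjusted p = 0.00510). Of 18 YAP/TAZ genes 5 rose (6.42% of all genes) and 1 fell (5.60%). Only ANKRD1, at 0.25 (SE 0.059, adjusted p = 0.0120), passed with averaged replicates. Without 12 h replicate 1 edgeR called 0 of the 18 higher, with 8 at an unadjusted p below 0.05. In that fit 338 of all genes rose, against 987 in the main fit.

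The matrix, integrin and EMT list, with 9 of 41 members higher (6.42% of all genes) and 8 lower (5.60%), was called both ways. Averaged replicates left 4 higher and 4 lower. TIMP3, a matrix-bound inhibitor of metalloproteases, stood at 369.9, 390.0 and 402 CPM at 12 h and 532, 535 and 531 CPM at 24 h. All its 24 h libraries lay above those of 12 h, by 0.46 (SE 0.053, adjusted p = 5.04e-05). COL13A1, a transmembrane collagen, stood at 101, 96.3 and 104 CPM at 12 h and 136, 133 and 138 CPM at 24 h, and rose by 0.43 (SE 0.054, adjusted p = 8.65e-05). The collagenase MMP1 rose by 0.36 (SE 0.075, adjusted p = 0.00504) and the integrin ITGB4 by 0.34 (SE 0.072, adjusted p = 0.00561). In the lower direction, PLAU, the protease urokinase, stood at 555, 553 and 544 CPM at 12 h and 468, 433 and 444 CPM at 24 h, and fell by 0.30 (SE 0.052, adjusted p = 0.00154), TGFBI by 0.35 (SE 0.056, adjusted p = 8.87e-04) and VIM, which encodes vimentin, by 0.34 (SE 0.063, adjusted p = 0.00236). The counts of PLAU and VIM were fractional in all 17 libraries.

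In the TGF-β and BMP list, 5 of 24 rose (6.42% of all genes) and 2 fell (5.60%). PMEPA1, an inhibitor of TGF-β signalling that TGF-β itself induces, stood at 85.8, 89.0 and 91.7 CPM at 12 h and 57.3, 51.5 and 53.4 CPM at 24 h. It had the lowest adjusted p of all members of the 24 lists, with a fall of 0.72 (SE 0.054, adjusted p = 3.39e-07), and SMAD7, another induced inhibitor, fell by 0.29 (SE 0.09, adjusted p = 0.0433). TGFBR1, TGFBR2 and TGFBR3, the receptors, rose by 0.39, 0.34 and 0.51, and SMAD3 by 0.23. With averaged replicates PMEPA1 stayed called (4.42e-05) and 0 members were called higher by edgeR (1.80% of all genes), with 7 at an unadjusted p below 0.05. The share of all genes with an unadjusted p below 0.05 in that fit is not given. From 0 h, PMEPA1 was -0.45 (adjusted p = 1.46e-05) at 12 h and -1.17 (adjusted p = 2.77e-11) at 24 h.

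Of 28 hypoxia and glycolysis genes, 8 rose (6.42% of all genes) and 2 fell (5.60%), and 3 and 2 with averaged replicates. Without 12 h replicate 1, 24 h replicate 2 or 24 h replicate 3, 3, 5 and 4 rose, and with library size alone 13. Of all genes, 338, 354 and 383 rose without those libraries and 1270 with library size alone, against 987 in the main fit. The mitophagy receptor BNIP3 rose by 0.29 (SE 0.052, adjusted p = 0.00161), the glycolytic hexokinase HK2 by 0.32 (SE 0.063, adjusted p = 0.00403), and the stress gene NDRG1 by 0.44 (SE 0.10, adjusted p = 0.00787). ADM, the vasodilator adrenomedullin, fell by 0.48 (SE 0.092, adjusted p = 0.00298). Of 29 genes of cholesterol and fatty acid synthesis, 3 rose (6.42% of all genes) and 2 fell (5.60%). LSS and NSDHL, enzymes of cholesterol synthesis, were called in opposite directions, at 0.25 (SE 0.063, adjusted p = 0.0160) and -0.29 (SE 0.075, adjusted p = 0.0167), and SCD, the stearoyl-CoA desaturase, fell by 0.24 (SE 0.066, adjusted p = 0.0246). These 3 were not called with averaged replicates (0.106, 0.114 and 0.0705).

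**Figure D5:**
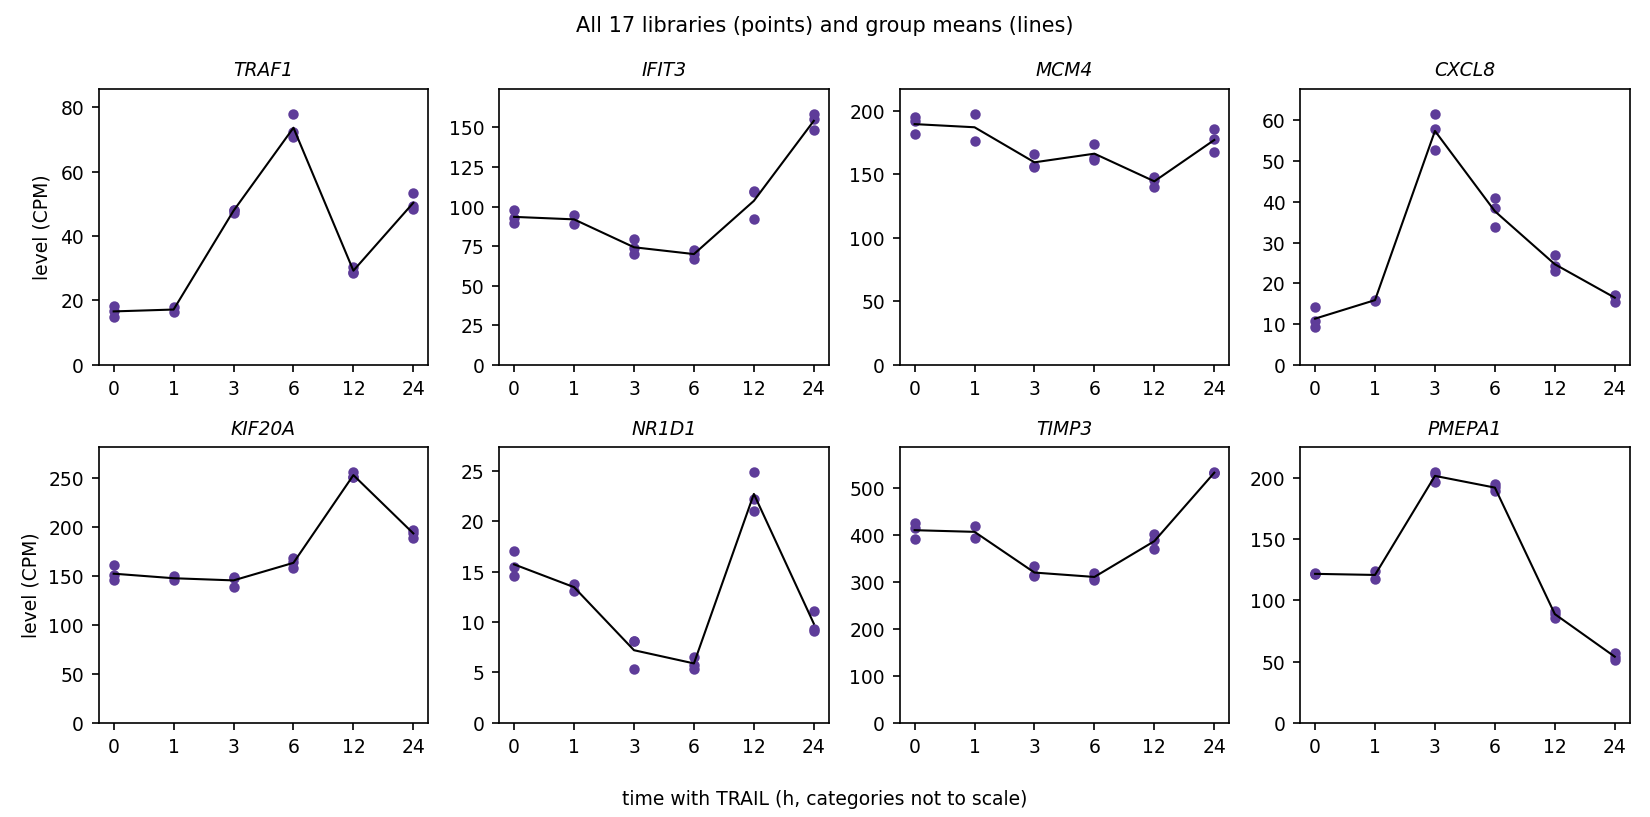
Level (CPM) of 8 genes in all 17 libraries (points) with the mean of each time (line), with times evenly spaced and not to scale. KIF20A and NR1D1 have their highest mean at 12 h, MCM4 its lowest at 12 h (144 CPM), and PMEPA1 its lowest and TIMP3 its highest at 24 h (54.1 and 533 CPM).

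The number of mitochondrial and ribosomal protein transcripts called changed with single libraries. Of 13 transcripts of the mitochondrial genome, 7 fell (5.60% of all genes) with a median of -0.63. MT-CYB, the cytochrome b of complex III, stood at 3297, 2466 and 2498 CPM at 12 h and 1883, 1609.9 and 1736 CPM at 24 h. Replicate 1 was the highest library at 12 h, and the fall was 0.66 (SE 0.18, adjusted p = 0.0325). The edgeR count was 0 with averaged replicates and without 12 h replicate 1, 24 h replicate 2 or 24 h replicate 3, with 10 of the 13 at an unadjusted p below 0.05 in each of these fits. Of all genes, 177, 245, 243 and 285 were called lower in those fits, against 860 in the main fit. Their shares of all genes at an unadjusted p are not given. The edgeR count was 2 without 12 h replicate 3 and 3 without 24 h replicate 1, where 579 and 1260 of all genes fell. Without 12 h replicate 2, all 13 were lower at an unadjusted edgeR p below 0.05, with a median of -0.72.

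Of 39 cytosolic ribosomal protein genes, 11 fell (5.60% of all genes) with a median of -0.22. RPL23 stood at 1105, 891 and 1008 CPM at 12 h and 894, 735 and 748 CPM at 24 h, with overlapping groups, and its fall of 0.34 (SE 0.088, adjusted p = 0.0186) had the lowest adjusted p of the list. The edgeR count was 0 with averaged replicates and without 12 h replicate 1, 24 h replicate 2 or 24 h replicate 3, with 12, 11, 12 and 13 members at an unadjusted p below 0.05. It was 1 without 12 h replicate 3 and 28 without 24 h replicate 1, where 579 and 1260 of all genes fell. In the fits with 0 called, 177, 245, 243 and 285 of all genes fell, and shares of all genes at an unadjusted p are not given. Without 12 h replicate 2, 32 of the 39 were lower at an unadjusted edgeR p below 0.05, with a median of -0.26. Transcript length moved with these calls: the median transcript was 1299 bases for genes that rose, 943 bases for genes that fell and 1102.5 bases for genes not called. With length and GC trends removed from each library, 12 ribosomal protein and 4 mitochondrial transcripts were lower (7.62% of all genes). In bulk RNA, fewer cells of a type and less RNA per cell cannot be told apart, and the part of mitochondrial share and length in these results was otherwise not tested. Of 32 nuclear respiratory chain genes, 1 rose (6.42% of all genes) and 2 fell (5.60%). EdgeR called 0 of 11 replication-dependent histone transcripts (6.42% of all genes rose and 5.60% fell), 0 also by DESeq2 and limma-voom. The libraries were poly(A)-selected, so these counts may not measure the level of histone transcripts.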

How the data were processed

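RNA of MDA-MB-231 cells was measured by stranded, poly(A)-selected paired-end sequencing, per the labels' protocols. The authors deposited 1 table of expected counts (RSEM, per the file name), neither scaled to depth nor to length, of which 10.8% were not whole (tolerance 1e-6). Cutadapt 1.18, STAR 2.7.0f and hg38 are named in the submitters' processing notes, and the annotation and the strand setting of the counting are not given in the sources used here. Without strand, reads of overlapping genes cannot be told apart. Positions of genes are those of GENCODE 29 on GRCh38, in which 58552 of 58870 entries were found by identifier without version. Promoter sequences are from RefSeq (GRCh38.p14).

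Expected counts were rounded, filtered by filterByExpr and scaled by TMM. A quasi-likelihood model with robust estimation (edgeR 4.0.16, R 4.3.3) with 1 mean per time was fitted to all 17 libraries, which share 1 estimate of the spread (common biological coefficient of variation 7.06%). Adjusted p-values are Benjamini-Hochberg over the 15365 genes tested, and a gene is called below 0.05. Levels are CPM on the TMM-scaled total. The SE of a log2 fold change comes from the coefficient and the F statistic. The 24 gene lists and 5 marker lists and the comparison were chosen with earlier results of these data known. Genes named were NFKB2, the 10 highest and 10 lowest log2 fold changes among called genes that were also called with averaged replicates, had a mean log2 CPM of at least 2 and did not overlap between the groups, up to 5 called members per list and direction, and other list members with their own result. Further genes not called, and the families and adhesion genes of the closing section, were chosen after their values were seen. The test was run on simulated counts with libraries drawn independently of each other, with 7 false among 167 calls. Alternatives beside the 6 libraries left out in turn include RLE scaling, library size alone, other filters, DESeq2 1.42.0, limma-voom (limma 3.58.1), the replicate block and length and GC trends (mgcv 1.9.3). Some genes that the rule names are not reported here.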

Additional observations from a re-analysis of the deposited data

How the results depend on the processing

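Counts are given in the order higher, lower, at least 2-fold higher and at least 2-fold lower. Leaving out each of the 6 libraries in turn gave 338 to 1529 higher, 243 to 1260 lower, 8 to 33 at least 2-fold higher and 13 to 59 at least 2-fold lower, against 987, 860, 20 and 45. Averaged replicates gave 275, 177, 6 and 9. Averaged replicates with length and GC trends removed, an alternative chosen after seeing the data, gave 593, 391, 11 and 20. The fit without a filter gave 66 and 117 at least 2-fold, and DESeq2 9 and 19. Length and GC trends removed with the replicate block gave 1573 higher and 1302 lower. NFKB2 kept its direction under every alternative, at 0.29 with an adjusted p of 0.0551 with averaged replicates, and from 0.23 to 0.32 with single libraries left out. RLE scaling, limma-voom, unrounded counts, a mean count of at least 10 and the fit of the 6 libraries alone kept each of these counts within 1.5 times. Of 134 called genes with their own result, 72 stayed called with averaged replicates, 127 with library size alone and 133 with RLE scaling. Under any alternative run 0 reversed. The 134 include the 10 highest and 10 lowest genes named by rule, which had to be called with averaged replicates. The 72 therefore overstates how many calls outlast averaging. The fit with the replicate block gave 1086 higher and 946 lower. Same-numbered libraries deviated together for 2 of 3 pairs (correlations of 0.286, 0.249 and -0.158), so the numbers were not taken as a pairing. In simulated counts 84% of 1.5-fold changes were recovered, so genes not called may differ by that much. Smaller changes were missed more often, with 36% recovered at the smallest change simulated. Recovery for genes of low level is not known. The cause of these dependences was not tested.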

Other observations

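Several groups of genes were picked out after their values were seen and are given as descriptions. Of 22 hnRNP genes, whose proteins package and splice nascent RNA, 10 fell and 2 rose (5.60% and 6.42% of all genes), and 5 fell with averaged replicates. HNRNPH3 fell by 0.48 on the log2 scale (adjusted p = 3.00e-05), from 295.2 ± 6.08 to 211.1 ± 7.93 CPM, and HNRNPL by 0.36 (adjusted p = 4.65e-04), both with fractional counts in all 17 libraries. Of 21 SNHG genes, the noncoding hosts of small nucleolar RNAs, 7 fell, with SNHG1 at 172.0 ± 14.9 CPM at 12 h and 123.5 ± 10.6 CPM at 24 h, but 1 was called with averaged replicates. Of 20 cytosolic aminoacyl-tRNA synthetase genes, 6 fell, and 3 with averaged replicates (GARS, TARS and CARS). Of 524 lincRNA genes 29 were lower (5.53%) and 6 higher (1.15%), and 5 and 2 with averaged replicates. Of 783 antisense genes 32 were lower (4.09%) and 7 higher (0.894%), and 4 and 1 with averaged replicates. The lower shares of both are at or under the 5.60% of all genes, and of 12867 protein-coding genes 740 were lower (5.75%) and 967 higher (7.52%).

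Values of 3 further single genes, also picked after they were seen, follow. ICAM1, an adhesion molecule that binds leukocytes, stood at 63.0, 67.0 and 68.1 CPM at 12 h and 90.2, 95.7 and 97.5 CPM at 24 h, and rose by 0.52 (SE 0.064, adjusted p = 8.65e-05). VCAM1, another adhesion molecule, stood at 2.13, 2.51 and 2.33 CPM at 12 h and 5.15, 5.52 and 5.60 CPM at 24 h, and rose by 1.21 (SE 0.23, adjusted p = 0.00277). ARC, an immediate-early gene of low level here, stood at 2.61, 2.16 and 2.50 CPM at 12 h and 0.176, 0.682 and 0.267 CPM at 24 h, and fell by 2.66 (SE 0.32, adjusted p = 7.06e-05), with all its 24 h libraries under 1 CPM.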
